A study of Bos taurus with 15 samples.

Results

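This report describes the transcriptome of bovine (Bos taurus) blastocysts at day 7 that were collected in vivo, without any period of laboratory culture in their label. The series holds 15 libraries of polyadenylated RNA, and the 5 described here are those labelled as collected in vivo. The other 10 libraries came from blastocysts cultured in vitro and are not compared here. The labels name no genetic modification and no treatment for the in vivo embryos, and give neither breed, donor cow nor way of collection. The number of blastocysts stated per group equals the number of libraries, yet no label states that each library was a single embryo and not pooled ones. It is likewise not stated that the embryos had different donors or collection days, so the spread between them may be partly technical. No groups are compared and no test between groups is made. Below, series of 5 values follow the order of in vivo libraries 1 to 5.

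A bovine blastocyst at this age is a hollow embryo. Its outer epithelium, the trophectoderm, pumps fluid into the cavity and later forms the placenta. Inside lies the inner cell mass, which separates into the epiblast, the source of the fetus, and the hypoblast, the source of the yolk sac lining. In a library made from whole embryos, fewer cells of a type and less RNA per cell cannot be told apart.

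The 5 libraries were deeply sequenced, and differed in how many genes they held. Their totals were 41974214, 24071544, 39754929, 24477394 and 26792279 estimated counts. At least 10 counts were found for 10816, 7293, 12611, 8547 and 9930 genes, of 17259 in the table. Libraries 2 and 4 detected the fewest genes, and library 3 the most. Transcripts encoded by the mitochondrial genome took 3.29%, 13.4%, 4.15%, 10.997% and 6.09% of counts, with the highest shares again in libraries 2 and 4. Because these libraries detected the fewest genes, some results are also given for libraries 1, 3 and 5 alone. They are the measures of concentration and spread, the shares of the leading groups and the levels of the main markers. The part of detection, of depth and of mitochondrial share in the differences between libraries was not tested. Of all genes, 5981 (34.7%) reached 10 counts in all 5 libraries, 9220 did so in each of libraries 1, 3 and 5, and 4126 did so in none.

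A small number of genes held much of the RNA that was counted. The 10 genes with the most counts held 11.4, 22.5, 10.4, 15.6 and 11.3 percent of the counts of their library. The 100 with the most counts held 31.6, 49.1, 29.9, 37.1 and 32.6 percent. A share of 50% of all counts came from 369, 107, 438, 250 and 325 genes. Library 2 was the most concentrated by each of these measures and library 3 the least. The mean share of the top 10 genes was 14.3% ± 5.04 over 5 libraries and 11.1% ± 0.559 over libraries 1, 3 and 5 (SD, n = 5 and n = 3). Of the 100 leading genes of each library, 30 were shared by all 5 libraries and 76 by libraries 1, 3 and 5. Pairs among libraries 1, 3 and 5 shared 79 to 88, pairs with library 4 57 to 87 and pairs with library 2 33 to 57.

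**Figure D1:**
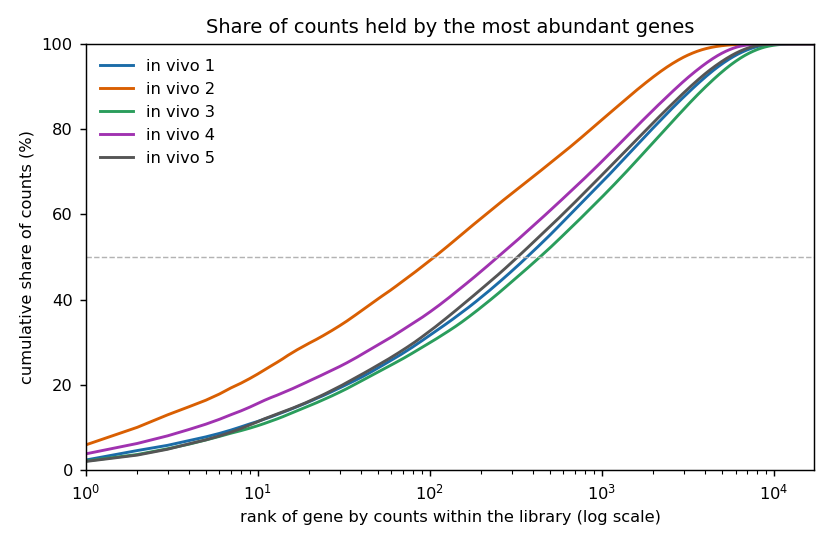
Cumulative share of counts (percent, vertical axis) against the rank of a gene by counts within its library (log scale, horizontal axis), with 1 line per library and a dashed line at 50%. Library 2 reaches 50% with 107 genes and library 3 with 438, and the lines of libraries 1 and 5 run close together.

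Levels are given in CPM, counts scaled to a common library size, here with TMM factors over these 5 libraries. Estimated counts grow with the length of a transcript, and no transcript lengths were used, so ranks are ranks of counts and do not order genes by their number of RNA molecules. Relative to plain totals, the scaling shifted log2 values of library 2 by 0.64 and those of library 3 by -0.41. Over 5966 genes with at least 10 counts in every library, library 2 differed from the median of the other 4 by a median of -0.10 on the log2 scale after TMM. The same median was -0.86 with plain totals and 0.31 with DESeq2 size factors, so the place of library 2 among the others depends on the scaling for genes near that shift. The libraries named below as highest or lowest for a gene are so with all 3 scalings unless a sentence says otherwise. Shares in percent use plain totals, by which library 2 had the lowest sum for 21 of 32 gene lists and the highest for 6. With TMM these counts were 8 and 14, and with DESeq2 size factors 5 and 22. The place of library 2 in a list's share therefore turns with the scaling for many lists.

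Mitochondrial, cytoskeletal and epithelial transcripts led the ranks. The gene with the most counts was ACTB, the cytoplasmic beta actin, in libraries 1 and 3, CELF2 in library 2 and MT-CYB in libraries 4 and 5. MT-CYB, which encodes cytochrome b of respiratory complex III, lay at 9832, 45601, 10163, 39561 and 18529 CPM. It ranked between 1 and 4 in the 5 libraries, and libraries 2 and 4 lay above the other 3 with every scaling. ACTB lay at 20948, 12605, 16062, 11235 and 12589 CPM, with library 1 highest. ACTG1, the gamma actin, had the smallest spread of the 20 leading genes with TMM scaling, at 9024 ± 1082 CPM (SD, n = 5).

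The mitochondrially encoded genes held a large and variable share of the counts of the 100 leading genes. All 9 that the table lists were counted in each library, and 7 of them were among the 100 genes with the highest mean CPM, where they held 7.49% ± 4.35 of counts (SD, n = 5). Over libraries 1, 3 and 5 they held 4.46% ± 1.42 (SD, n = 3), close to the 4.54% ± 0.598 of actin and tubulin genes and the 4.36% ± 0.758 of simple epithelium genes. MT-ATP6, a subunit of ATP synthase, lay at 7269, 64689, 7335, 25633 and 13814 CPM. MT-CO2, a subunit of cytochrome oxidase, lay at 4194, 29767, 3784, 18614 and 7699 CPM. MT-ND3, a small subunit of complex I, lay at 810.4, 17165, 778, 3008 and 1499 CPM. Library 2 was highest for 9 of the 9 genes with TMM scaling and with DESeq2 size factors, and for 7 with plain totals. Over all 6923 genes with a mean of at least 10 CPM, library 2 was highest for 31.6% with TMM scaling. Of the 3128 genes from 50 CPM up, it was highest for 1345. Such values over all genes are given for TMM scaling only.

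Ribosomal protein genes gave the most members of the 100 leading genes, 26, with 5.81% ± 2.39 of counts over 5 libraries and 4.501% ± 1.09 over libraries 1, 3 and 5. Those 100 genes were ranked by mean CPM over 5 libraries, so a high value in library 2 alone can bring a gene in. The shares over libraries 1, 3 and 5 use the same genes. Both limits hold for every group of leading genes. The whole family of 69 genes took 6.90%, 12.7%, 6.36%, 9.06% and 9.24%. Its members did not move together in library 2. Of 66 members with a mean of at least 10 CPM, 39 lay above all other libraries in library 2 and 11 below all others. These counts were 28 and 28 with plain totals, and 48 and 5 with DESeq2 size factors. Over all 6923 genes with such a mean, library 2 was highest for 31.6% and lowest for 44.4% with TMM scaling. Of the 3128 genes from 50 CPM up, it was highest for 1345 and lowest for 1070. These values over all genes are given for TMM scaling only, so the counts with the other scalings have none beside them. RPS29 was at 547, 16373, 342, 1888 and 1339.5 CPM and RPS27A, which also encodes a ubiquitin, at 1634, 23605, 990.0, 4798 and 3372 CPM. Both were highest in library 2. In contrast RPLP0, a stalk protein of the large subunit, was at 3365, 1358, 2668, 2418 and 3393 CPM and RPSA at 3701, 1421, 2589.8, 3806 and 3951 CPM, each lowest in library 2. RPL19 had the smallest spread among members from 10 CPM up with TMM scaling, at 1256 ± 139 CPM (SD, n = 5).

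Nuclear genes of oxidative phosphorylation were mixed in the same way. The 76 listed genes took 3.63%, 7.23%, 3.39%, 4.41% and 4.34% of counts. Of 72 with a mean of at least 10 CPM, library 2 was highest for 42 and lowest for 17 with TMM scaling. With plain totals it was so for 33 and 31, and with DESeq2 size factors for 51 and 11. Over all genes with such a mean, library 2 was highest for 31.6% and lowest for 44.4% with TMM scaling. These shares over all genes are given for TMM scaling only. COX6C, a small subunit of cytochrome oxidase, lay at 658, 15897, 380.0, 1814 and 1163 CPM, with library 2 far above the other 4. ATP5F1B, the catalytic subunit of ATP synthase, lay at 4692, 1756, 3664, 2968 and 3717 CPM, with library 2 lowest. NDUFS8, a core subunit of complex I, was among the genes with the smallest spread after TMM scaling, at 366, 360.4, 327, 396 and 338 CPM.

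Several leading genes belonged to none of the 32 gene lists used here; these 19 genes of the leading 100 held 6.20% ± 2.83 of counts over 5 libraries and 4.75% ± 0.366 over libraries 1, 3 and 5. CELF2, an RNA-binding regulator of splicing, lay at 3579.8, 91893, 4089, 11923 and 8448 CPM, which was 5.89% of the counts of library 2 and 0.402% of those of library 1. CALM2, a calmodulin gene, lay at 2349, 14324, 1768, 4573 and 3518 CPM. FAM151A lay at 7791, 1719, 4368, 5067 and 4005 CPM, highest in library 1 and lowest in library 2. UBB, a polyubiquitin gene, lay at 5089, 3015, 3745, 5673 and 4974 CPM. HSPA8, a constitutive heat shock protein, had a mean of 5703 ± 1484 CPM, and EEF1A1, the factor that delivers aminoacyl-tRNA to the ribosome, one of 4907 ± 568 CPM (SD, n = 5).

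**Figure D2:**
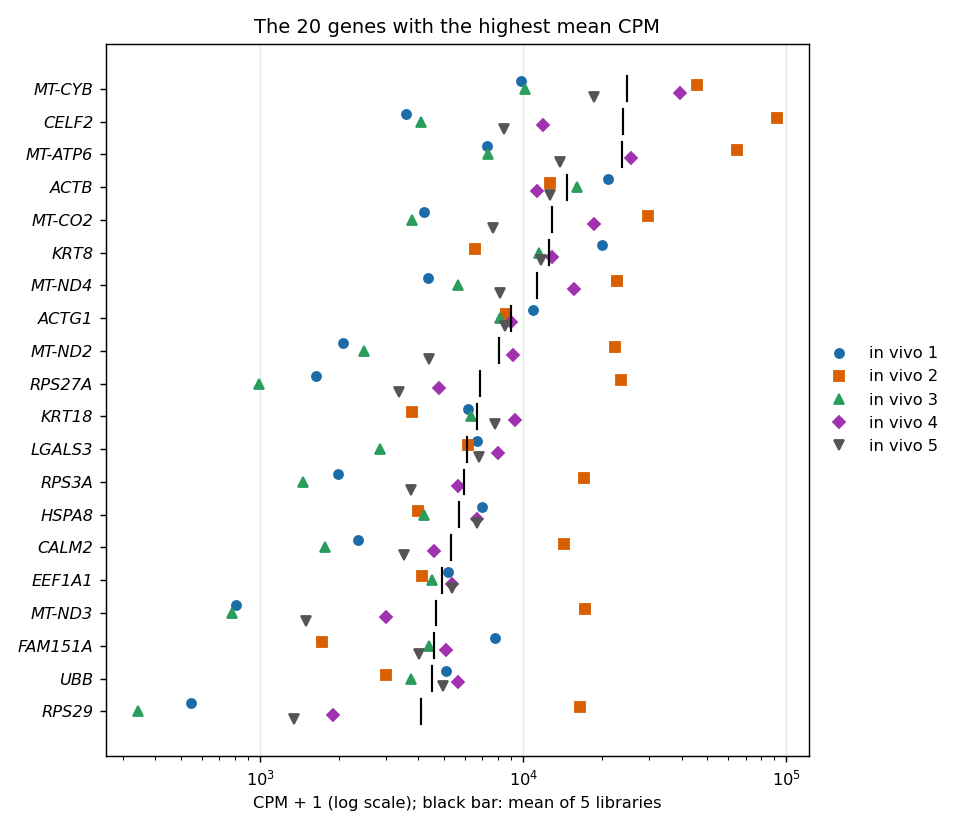
CPM plus 1 on a log axis for the 20 genes with the highest mean CPM, with 1 symbol per library and a black bar at the mean of 5 libraries. Mitochondrial genes, CELF2, RPS27A, RPS3A, RPS29 and CALM2 are far to the right in library 2, while ACTG1 and EEF1A1 cluster within a narrow range.

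The label of a blastocyst was checked against markers of its lineages, and each lineage had a marker or more with at least 1000 counts in every library. KRT18, a keratin of the trophectoderm, had 289552, 58115, 335238, 219002 and 227490 counts. LRP2, an endocytic receptor of the hypoblast and trophectoderm, had 102350, 29540, 136060, 90038 and 83340 counts. NANOG, an epiblast factor, had 9490, 2102, 8914, 7567 and 11292 counts, and GATA6, the early hypoblast factor, had 4862, 6188, 7447, 4844 and 4692 counts. Of the 14 marker genes, GATA4 and SOX17, also listed for the hypoblast, were at or near 0 in every library. GATA3, CDX2, POU5F1, SOX2 and PDGFRA had fewer than 1000 counts in library 2. The epiblast part of this check therefore rests on NANOG, and the hypoblast part on LRP2 and GATA6.

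Epithelial genes of the trophectoderm were abundant. The list of simple epithelium genes, keratins and junction proteins took 5.95%, 1.79%, 4.66%, 4.41% and 4.37% of counts, and 28 of its 32 members had at least 10 counts in every library. Library 1 was highest for this list with every scaling, and library 2 lowest except with DESeq2 size factors, by which library 3 was lowest. KRT18 lay at 6146, 3764, 6349, 9323 and 7793 CPM, a mean of 6675 ± 2069 CPM over 5 libraries and 6763 ± 898 CPM over libraries 1, 3 and 5. KRT8, its type II partner in the filament, lay at 19961, 6558, 11489.7, 12859 and 11681 CPM, with library 1 highest and library 2 lowest. KRT19, a second type I keratin, lay at 2372, 79.7, 838, 3461 and 1892 CPM, so library 2 was separated from the rest. Keratin genes have close relatives, so how estimated counts were divided among them is uncertain.

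EPCAM, CDH1 and EZR varied less between libraries than KRT19. EPCAM, an epithelial adhesion molecule, lay at 885, 746, 566, 769.6 and 782 CPM and CDH1, which encodes E-cadherin, at 639, 1254, 759, 589 and 507 CPM. EZR, which encodes ezrin of the apical microvilli, had the smallest spread among members from 10 CPM up with TMM scaling, at 3491 ± 554 CPM. CLDN6, a tight junction protein, lay at 4796, 1512, 2814, 2969 and 2911 CPM. CLDN10, another claudin, had the largest spread among members from 10 CPM up and lay at 23.4, 161, 31.3, 0 and 17.5 CPM, with 0 counts in library 4. LGALS3, which encodes the lectin galectin-3, lay at 6688, 6169, 2857, 8040.4 and 6789 CPM and was lowest in library 3.

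Transcription factors of the trophectoderm took a smaller share of counts, and their median spread, given further on, was larger. The 24 listed factors summed to 0.116%, 0.0829%, 0.134%, 0.104% and 0.126% of counts, and 19 of them had at least 10 counts in every library. TFAP2C, an AP-2 factor, lay at 87.4, 108, 103, 152 and 159 CPM and GATA2 at 81.1, 62.0, 69.7, 82.2 and 76.9 CPM, and GATA2 had the smallest spread among listed factors from 10 CPM up with TMM scaling. GATA3 lay at 115, 6.86, 98.5, 16.3 and 49.3 CPM, with libraries 2 and 4 below the other 3. CDX2 lay at 8.34, 5.44, 4.96, 24.4 and 1.85 CPM, with its highest value in library 4. VGLL1, a TEAD cofactor, lay at 164, 209, 142, 199 and 380.3 CPM, highest in library 5, and KLF5 at 74.1, 614, 121, 214 and 180.1 CPM, highest in library 2. TEAD4, the TEAD factor of the trophectoderm, lay at 83.0, 2.20, 51.6, 43.0 and 52.2 CPM. EOMES and HAND1 had means under 1 CPM.

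Secreted and steroid-forming products of the trophectoderm were counted at widely different levels. PTGS2, a prostaglandin synthase, lay at 694, 2311, 546, 1220.3 and 715 CPM. PAG2, a pregnancy-associated glycoprotein, lay at 743, 223, 432, 662 and 418 CPM, while PAG11 had counts in libraries 3 and 5 alone, at 2.99 and 28.9 CPM. Interferon tau is the signal by which the ruminant embryo maintains pregnancy. IFNT lay at 9.70, 1.04, 10.9, 1.58 and 69.6 CPM and IFNT3 at 26.8, 0, 7.67, 1.62 and 24.1 CPM, both low in libraries 2 and 4. Genes of these families are near-identical copies, so their counts are uncertain. CYP11A1, the first enzyme of steroid synthesis, lay at 129, 101, 24.9, 88.4 and 131 CPM, and HSD3B1, a later enzyme, at 238, 27.7, 96.9, 326 and 144 CPM. STAR, which brings cholesterol into the mitochondrion, lay at 9.87, 0, 15.7, 166 and 92.8 CPM, and libraries 4 and 5 lay above the other 3.

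Of the transport genes that serve the fluid-filled cavity, a subunit of the sodium pump had the most counts. ATP1B3, a beta subunit of the pump, lay at 1934, 1703, 1382, 2746 and 1902 CPM. ATP1B1, the other common beta subunit, was at 5.41, 0.324, 4.15, 36.7 and 4.42 CPM, with library 4 highest. The water channel AQP3 lay at 324, 195, 201, 77.3 and 104 CPM. AQP11, a second water channel, was at 57.3, 0, 55.5, 13.0 and 63.0 CPM, nearly equal in libraries 1, 3 and 5 and at 0 counts in library 2. SLC2A3 and SLC2A1, glucose carriers, lay at 1108 ± 325 CPM and 195 ± 117 CPM (SD, n = 5). The list took 0.591%, 0.204%, 0.558%, 0.515% and 0.488% of counts.

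The epiblast list took 0.389%, 0.346%, 0.379%, 0.391% and 0.424% of counts, a mean of 0.386% ± 0.0278 (SD, n = 5), and 15 of 29 members had at least 10 counts in every library. With TMM scaling its summed level was 3469, 5401, 2856, 4072 and 3893 CPM, so that library 2 was lowest by share and highest by this sum. The coefficient of variation over libraries was 7.21% with plain totals, 23.9% with TMM and 40.4% with DESeq2 size factors. Some of its leading members are not restricted to the epiblast: DNMT3A, a DNA methyltransferase, lay at 1257, 990.3, 858, 1157 and 925 CPM, and DPPA3, a maternal and germline factor, at 229, 2653, 169, 338 and 284 CPM. DPPA3 was far above the rest in library 2, so members did not move together within this sum.

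Core pluripotency factors differed among themselves. NANOG lay at 201, 136, 169, 322 and 387 CPM, highest in libraries 4 and 5. POU5F1 lay at 139, 23.5, 178, 279 and 349 CPM with the same 2 libraries highest and library 2 lowest. SOX2 lay at 5.94, 13.1, 15.3, 11.2 and 5.28 CPM, with no such order. Over libraries 1, 3 and 5 NANOG averaged 252 ± 118 CPM and POU5F1 222 ± 112 CPM (SD, n = 3). ZFP42 and DPPA4, further pluripotency genes, lay at 567 ± 129.9 CPM and 263 ± 42.8 CPM (SD, n = 5). PRDM14 lay at 44.1, 18.1, 72.7, 177 and 141 CPM. ESRRB, an orphan nuclear receptor, lay at 128, 0.777, 97.3, 0 and 65.0 CPM and had the largest spread among members from 10 CPM up, with 0 counts in library 4. CRIPTO, a NODAL co-receptor, lay at 71.4, 376, 38.8, 152 and 129 CPM, while NODAL itself was at 8.94, 0, 6.69, 2.001 and 2.16 CPM.

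The hypoblast list took 0.621%, 0.379%, 1.27%, 0.656% and 0.797% of counts. Its coefficient of variation was 44.1% with plain totals, 22.4% with TMM and 17.3% with DESeq2 size factors, and that of trophectoderm factors was 17.9%, 10.2% and 25.6%, so the order of the 3 lists turns with the scaling. Library 3 was highest for the hypoblast list with each of them, and FN1, which encodes fibronectin, had its highest value there too, at 1098, 1724, 4291, 1114 and 1985 CPM. The list summed to 5529, 5911, 9531, 6836 and 7314 CPM, so the lead of library 3 with TMM scaling rests on FN1. LRP2 and FN1 together held 0.503% ± 0.255 of counts, of a mean of 0.744% for the whole list (SD, n = 5). LRP2 lay at 2172, 1913, 2577, 3833 and 2855 CPM, a mean of 2670.0 ± 744 CPM over 5 libraries and 2535 ± 343 CPM over libraries 1, 3 and 5. DAB2, an adaptor that binds LRP2, had the smallest spread among members from 10 CPM up with TMM scaling, at 707, 914, 678, 832 and 683 CPM. CUBN, a partner of LRP2 in other epithelia, had a mean of 1.81 CPM that came almost entirely from library 4, at 8.85 CPM.

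GATA6 lay at 103, 401, 141, 206 and 161 CPM, with library 2 highest. Over libraries 1, 3 and 5 it averaged 135 ± 29.2 CPM (SD, n = 3). PDGFRA, a receptor of early hypoblast cells, lay at 65.0, 7.77, 128, 103 and 48.3 CPM, with library 2 lowest. HNF4A lay at 35.0, 0.194, 31.2, 0.596 and 8.05 CPM and was near 0 in libraries 2 and 4. SPARC and NID1, matrix proteins of the basement membrane, lay at 577, 319, 617, 79.9 and 429 CPM and 80.4, 57.8, 295, 133 and 287 CPM. GATA4 had 66, 0, 77, 5 and 3 counts and SOX17 27, 0, 32, 0 and 0. A count of 0 allows up to 3 counts, or 0.194 CPM in library 2 and 0.128 CPM in library 4, for counting error only. FOXA2, a later endoderm factor, had 0 counts in all 5 libraries.

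**Figure D3:**
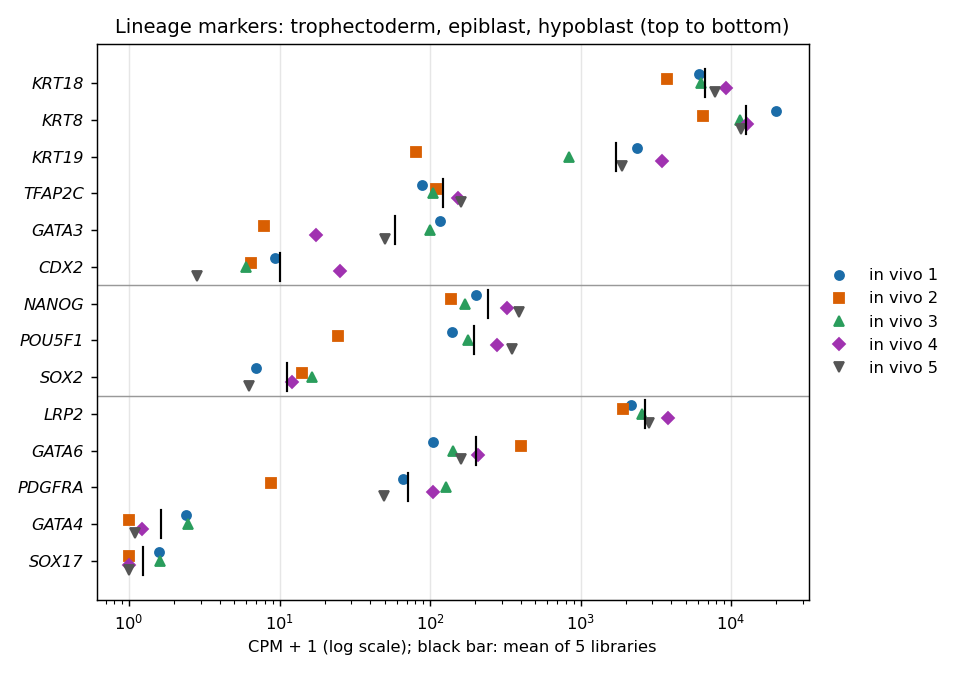
CPM plus 1 on a log axis for 14 lineage markers, grouped by grey lines into trophectoderm, epiblast and hypoblast, with 1 symbol per library and a black bar at the mean. KRT19, GATA3, POU5F1 and PDGFRA are lowest in library 2, GATA6 is highest there, and GATA4 and SOX17 lie at the left edge.

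Genes of other cell types that could accompany an embryo contributed little. The summed shares of counts were 0.00708% to 0.0257% for cumulus and granulosa cells, 0.00499% to 0.00821% for oviduct and uterine epithelium, 0.00301% to 0.00987% for leukocytes, 0.0000291% to 0.00617% for red blood cells, 0.00105% to 0.0120% for stroma and endothelium and 0.00343% to 0.0120% for sperm. Genes with 0 counts in every library were 5 of 18 in the granulosa list, 2 of 17 in the oviduct and uterine list, 5 of 19 in the leukocyte list, 4 of 10 in the red cell list, 4 of 18 in the stroma and endothelium list and 7 of 13 in the sperm list. FOXL2 and INHA, granulosa genes, were among them. The granulosa gene with the most counts was SERPINE2, a protease inhibitor also made by other tissues, at 171, 33.9, 135, 125 and 191 CPM. FSHR, the receptor of follicle-stimulating hormone, lay at 10.4, 3.50, 5.91, 39.8 and 25.2 CPM.

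Several defining genes of blood, vessel and maternal tract cells were at 0, while other members of these lists were counted. PTPRC, the pan-leukocyte antigen, had 0 counts in all 5 libraries, and so did FOXJ1, a factor of ciliated cells, and CDH5, a cadherin of endothelium. OVGP1, the oviduct glycoprotein, had counts in library 3 alone, at 2.54 CPM. In the oviduct and uterine list WFDC2, a secreted protein of many epithelia, lay at 5.77, 33.5, 0.739, 45.4 and 0.0685 CPM, MUC1, an epithelial mucin, at 33.1, 25.6, 11.4, 0.0851 and 9.63 CPM and TPPP3 at 16.2, 0.324, 14.2, 0.0426 and 25.5 CPM. CD3D, a T cell receptor subunit, lay at 39.4, 111, 54.5, 21.2 and 32.2 CPM, while CD3E was under 2 CPM in every library. PECAM1, an adhesion molecule of endothelium and platelets, lay at 45.6, 11.3, 39.7, 8.17 and 72.1 CPM. HBB, a globin, lay at 12.5, 0, 32.2, 9.58 and 2.88 CPM and ALAS2, the red cell enzyme of heme synthesis, at 16.8, 0.259, 12.1, 32.7 and 1.13 CPM, while SLC4A1, the red cell anion exchanger, had 0 counts. Of the sperm list, ODF2, also a centrosome protein, lay at 32.4, 0.130, 76.8, 33.8 and 34.1 CPM and CRISP2 at 3.46, 62.6, 7.05, 1.92 and 18.9 CPM, and the protamines PRM1 and PRM2 had 0 counts. The part of other cells in these values was not tested.

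The listed oocyte genes gave few counts. DPPA3, the maternal and germline factor described above, was placed in the epiblast list and is not part of these shares. The list of 28 measured genes took 0.00605% to 0.0342% of counts, and 6 members had a mean of at least 1 CPM. KIT, which other cells also express, was the largest at 87.8, 52.9, 197, 17.4 and 75.2 CPM. OOEP, of the subcortical maternal complex, lay at 9.74, 48.0, 7.56, 24.7 and 3.39 CPM. The oocyte growth factors GDF9 and BMP15 had 5, 0, 28, 0 and 0 and 0, 15, 6, 0 and 0 counts. NLRP5, NOBOX and H1-8 had 0 counts in all libraries.

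Housekeeping groups differed in the place of library 2 among the others. Genes of glycolysis and lactate handling took 1.53%, 0.420%, 1.39%, 1.18% and 1.23% of counts. With TMM scaling 13 of 21 members with at least 1 CPM were lowest in library 2. Of all genes with a mean of at least 10 CPM, a higher cut that 17 of these members reached, 44.4% were lowest there. GAPDH lay at 3349.9, 1266, 2238, 2783 and 2463 CPM and PFKL, a phosphofructokinase, at 141, 1.10, 114, 87.3 and 105 CPM, while PGK1 lay at 359.7 ± 41.3 CPM (SD, n = 5). Lysosomal and lipid genes took 1.11%, 0.340%, 0.910%, 0.916% and 0.898% of counts. Chaperones took 2.84%, 1.74%, 2.89%, 2.63% and 2.82% and translation factors 2.44%, 1.94%, 2.66%, 2.23% and 2.56%. With TMM scaling library 2 had the highest sum of translation factors and library 3 the lowest sum of both lists. Histone genes took 0.326%, 0.774%, 0.307%, 0.428% and 0.398%, led by the variant H2AZ1 at 706, 6425, 624, 1432 and 1212 CPM. Of the 32 lists, 6 had their largest share in library 2, those of mitochondrial, ribosomal, oxidative phosphorylation, proteasome, histone and sex chromosome genes, and these also had their highest sum there with TMM and DESeq2 size factors. All intervals for counting error on these shares (95% Wilson) were within 0.0136 percentage points of the share. They do not cover differences between embryos.

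**Figure D4:**
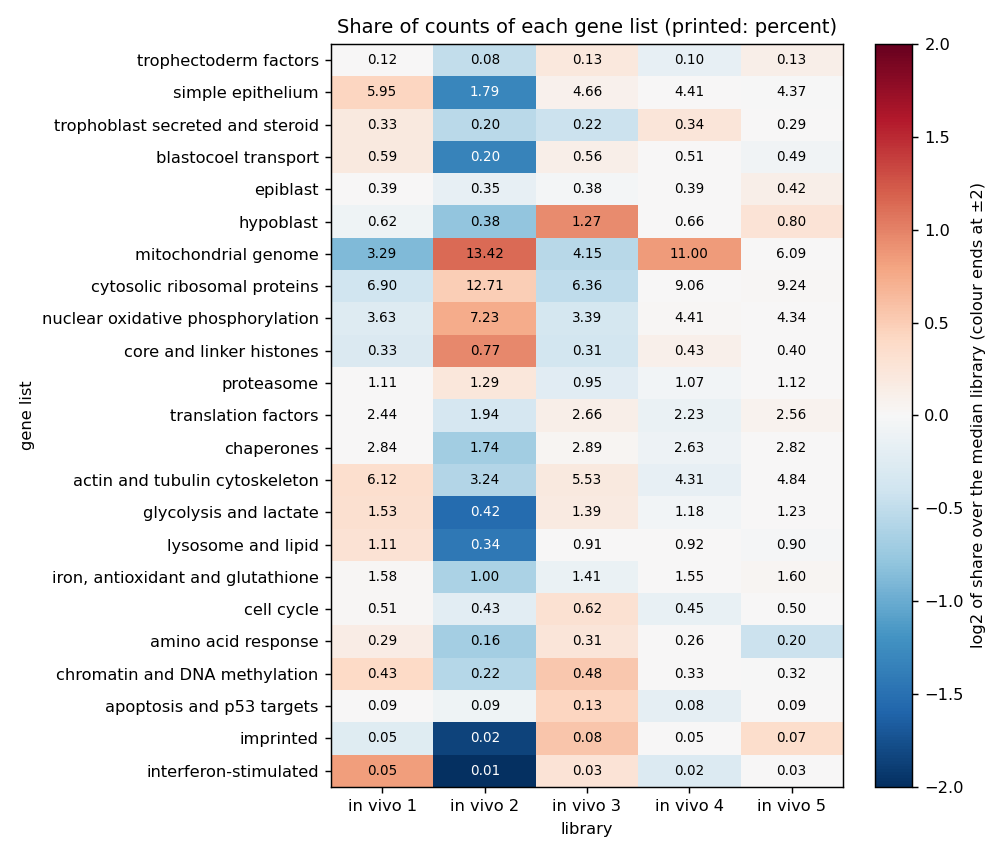
Share of counts in percent of plain totals (printed) of 23 gene lists in each library, with colour for the log2 ratio to the median library of that list (red above, blue below). Library 2 holds the strongest colours, in both directions, and the epiblast, proteasome and cell cycle lists are pale throughout.

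Gene-wise spread was measured as the SD of log2(CPM + 1), so that a value of 1 is a typical deviation of 2-fold for well-counted genes. The median over the 10555 genes with a mean of at least 1 CPM was 1.34 with 5 libraries. With libraries 1, 3 and 5 alone, scaled anew, it was 0.62. The coefficient of variation had a median of 82.8%. Among 6923 genes with a mean of at least 10 CPM, 4278 (61.8%) had an SD over 1, and 1017 (14.7%) did with libraries 1, 3 and 5. An SD under 0.25 was found for 114 and 1181 genes in the same order. The common biological coefficient of variation by edgeR, the spread left after counting error, was 0.80 for 5 libraries and 0.58 for 3. Its filter on low counts kept 6172 and 9302 genes in the same order, so these values cover different genes.

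Counting error was a small part of this spread where each estimated count is taken as independent. How molecular identifiers were treated is not given, so the error from sampling RNA molecules may be larger and was not tested. For genes between 10 and 50 mean CPM the median count per library was 774, which alone gives an SD of 0.05, against a measured median of 1.72 with 5 libraries and 0.62 with 3. The spread was smaller for genes above 100 CPM. For genes between 100 and 500 CPM it was 0.73 with 5 libraries and 0.37 with 3, and for the 146 genes from 1000 CPM it was 0.63 and 0.42. Across genes with at least 1 CPM, Pearson correlations of log2 values between libraries were 0.82 to 0.90 for the 3 pairs among libraries 1, 3 and 5. They were 0.61 to 0.64 for the 4 pairs with library 2 and 0.62 to 0.75 for the 4 pairs with library 4. The pair of libraries 2 and 4 is in both ranges. These correlations are descriptions over genes, which are not independent.

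**Figure D5:**
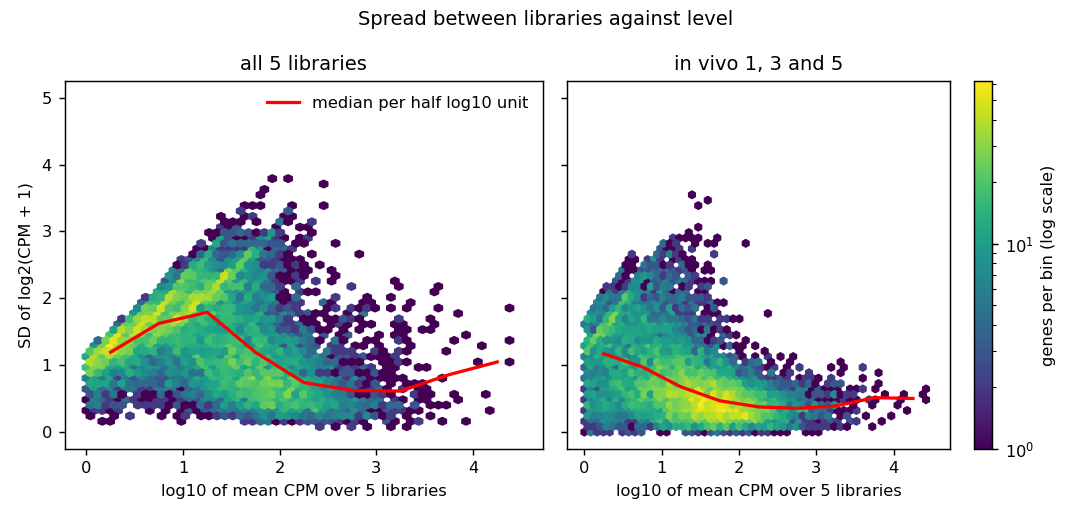
SD of log2(CPM + 1) between libraries against the log10 of mean CPM, for all 5 libraries (left) and for libraries 1, 3 and 5 (right), as gene density with a red line at the median per bin of mean CPM. The left panel has a ridge of genes with a spread above 1 at low and middle levels that is thinner in the right panel.

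Gene groups kept different degrees of spread. The median SD was 0.48 for translation factors, 0.50 for chaperones and 0.62 for ribosomal proteins. It was 0.68 for simple epithelium, 1.14 for the hypoblast list, 1.30 for the epiblast list and 1.39 for trophectoderm factors. With libraries 1, 3 and 5 alone these medians were 0.29, 0.25, 0.41, 0.41, 0.72, 0.68 and 0.65 in the same order. The medians over all genes stand above, at 1.34 and 0.62, and lists of highly counted genes are favoured by the relation of spread to level.

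The genes with the smallest spread among those with at least 50 CPM had SDs of 0.08 to 0.13 (10 genes) with TMM scaling over all 5 libraries. The same genes had SDs of 0.33 to 0.45 with plain totals and 0.16 to 0.28 with DESeq2 size factors, so their rank as steady depends on the scaling. DDX5, an RNA helicase, lay at 854, 899, 846, 785 and 789 CPM. YWHAB, a 14-3-3 protein, lay at 583, 624, 609, 543 and 546 CPM. TUBA1B, an alpha tubulin, lay at 2035, 1842, 1944, 2036 and 2221 CPM, and RACK1, a ribosome-bound scaffold, at 1487, 1559, 1323, 1609 and 1521 CPM. SRSF10, a splicing factor, and EIF4H, an initiation factor, lay at 263 ± 20.5 CPM and 573 ± 44.8 CPM (SD, n = 5). GTF3C2, of a transcription factor for RNA polymerase III, ARF5, a GTPase of vesicle transport, and HARS2, a mitochondrial histidyl-tRNA synthetase, lay at 71.8 ± 6.45 CPM, 257 ± 22.6 CPM and 50.2 ± 4.62 CPM. These genes were chosen by their spread over the same libraries, so their steadiness is a description.

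Of the 10 genes with the largest spread from 50 CPM up, 7 were under 1 CPM in library 2, in library 4 or in both and well counted in the others. The other 3, CAPN8, ABCC3 and RHBDF2, were highest in library 2. SUCLG1, a subunit of succinyl-CoA ligase, lay at 365, 0.712, 269, 243 and 462 CPM, and DTYMK, thymidylate kinase, at 205, 0, 111, 185 and 159.6 CPM. TBRG4, which acts on mitochondrial RNA, was near 0 in libraries 2 and 4 at 161, 0.0648, 157, 0.341 and 95.2 CPM, and AGPAT4 had the same pattern at 110.3, 0.324, 109.9, 0.0851 and 37.5 CPM. ABCC3, an export pump, lay at 0, 328, 1.82, 0.0851 and 0 CPM, and CAPN8, a calpain, lay at 0.0212, 515, 21.3, 0 and 29.7 CPM. Of the 100 genes with the largest spread from 50 CPM up, 72 were lowest in library 2 and 22 in library 4. Of all 3128 genes from 50 CPM up, 1070 were lowest in library 2. With the lower cut of 10 CPM, 44.4% of genes were lowest in library 2 and 20.1% in library 4.

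This pattern of near absence was counted for each library. Of the genes with a mean of at least 50 CPM in the other 4 libraries, 4, 210, 1, 59 and 14 were under 1 CPM, and 1, 73, 0, 21 and 6 had 0 counts. Library 2 held most such genes and library 3 the fewest. Among the 5 genes with the highest means that had 0 counts in a library were DTYMK, DDX39B, UPP1 and CTSZ, all with 0 counts in library 2. DDX39B, an RNA helicase of mRNA export, lay at 204, 0, 207, 82.7 and 155 CPM, and CTSZ, a lysosomal protease, at 211, 0, 115, 196 and 69.0 CPM. At the depth of library 2 a count of 0 allows up to 0.194 CPM for counting error.

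With libraries 2 and 4 left out, other genes had the largest spread. RAC1, a small GTPase that organises actin, lay at 38.3, 69.9, 74.8, 497 and 422 CPM, so libraries 4 and 5 were separated from libraries 1, 2 and 3. MRPS27, a mitochondrial ribosomal protein, lay at 133, 10.2, 87.9, 12.8 and 13.1 CPM, with libraries 1 and 3 above the other 3. ZNF263, a zinc finger protein, lay at 27.5, 192, 24.2, 11.5 and 0 CPM with 0 counts in library 5, and DNAJB14, a co-chaperone, at 11.9, 267, 12.6, 21.5 and 0 CPM, also with 0 counts there. TIPARP, an ADP-ribosyltransferase, lay at 69.2, 169, 26.5, 0 and 4.01 CPM. In the list of trophectoderm factors, GRHL2 lay at 13.8, 0, 16.5, 27.8 and 0.0343 CPM. In the epiblast list KLF17 had counts in libraries 3 and 5 alone, at 27.6 and 23.5 CPM. Near absence of a gene was therefore also seen in library 5, which detected 9930 genes.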

How the data were processed

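Polyadenylated RNA of 5 in vivo day 7 blastocyst libraries was analysed. Per the labels' protocols, libraries were stranded and their adaptors carried molecular identifiers. The authors deposited estimated counts per gene as whole numbers, unscaled. FastQC, fastp and kallisto are named per the submitters' processing notes. The sources used here do not give their versions and roles, the reference, or how strand and identifiers were treated. Coordinates are therefore left out. Columns followed the library names in the labels, and 1 line without a gene name, with no values, was left out. Of 17259 symbols, 17059 matched the ARS-UCD2.0 annotation. No pair of in vivo libraries agreed within sampling noise (chi-square per degree of freedom at least 239.9).

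CPM used TMM factors over the 5 libraries, computed anew for spread in libraries 1, 3 and 5 (edgeR 4.0.16, R 4.3.3), and DESeq2 1.42.0 size factors were an alternative. Spread was the SD of log2(CPM + 1) and edgeR's common biological coefficient of variation (estimateDisp, intercept only, genes kept by filterByExpr). In simulated counts for 7074 genes, 91% of 200 genes given a larger spread were among the 200 with the largest SD. The background biological coefficient of variation was set to 0.3 there, below the 0.80 of the 5 libraries. Recovery at 0.80 was not tested. The 32 lists held 877 genes of the table. The report names 14 lineage markers, the 20 genes with the highest mean CPM, the leading, steadiest and most spread members of each list, the most and least spread genes from 50 CPM up, and genes at 0 in a library. Some genes that the rule names are not reported here. Other list members were chosen after their values were seen. Members and lists were chosen with earlier results of these data known. Intervals and limits for counts of 0 cover counting error only.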

Additional observations from a re-analysis of the deposited data

Results flagged for a closer look

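In a group of 5, the highest or lowest library was singled out where its gap to the nearest library took more of the whole range than Dixon's 95% critical value allows. Chance does this in about 1 of 20 groups. It held for 19 of 144 genes named by the rule (on log2(CPM + 1) with TMM scaling), for 6 of 32 list shares and for 0 of 6 library measures. Many of these genes were named for their spread, which favours such gaps. Library 2 was the one apart in 16 of the genes, low in 13 and high in 3. Gaps below are shares of the range.

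Low in library 2 were the shares of blastocoel transport (0.734), chaperones (0.773) and lysosome and lipid genes (0.721). High in library 2 were the shares of nuclear oxidative phosphorylation (0.735) and histones (0.741). The share of apoptosis and p53 targets was high in library 3 (0.742). These shares use plain totals. With sums after TMM scaling the gaps were 0.468 for blastocoel transport and 0.338 for lysosome and lipid genes, below the critical value, and library 3, not 2, was lowest for chaperones. They were 0.766 for oxidative phosphorylation and 0.780 for histones, again high in library 2, and 0.793 for apoptosis and p53 targets, with library 2 and not 3 the one apart. Cell cycle (0.917) and sex chromosome genes (0.711) passed the critical value with these sums, high in library 2, though not by share.

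Genes low in library 2 were SUCLG1 (0.885), PFKL (0.888), PRDX6, a peroxiredoxin (0.879), EIF6, an initiation factor (0.946), PSMD3 of the proteasome (0.771), DTYMK (0.885), UPP1, uridine phosphorylase (0.790), AURKB, a mitotic kinase (0.755), DDX39B (0.830), CTSZ (0.793), IFI30 (0.836), SERPINE2 (0.751) and ODF2 (0.80002). EIF6, for example, lay at 172, 8.61, 155, 148 and 147 CPM and PRDX6 at 983, 12.6, 584, 953 and 794 CPM. High in library 2 were DPPA3 (0.750), GJA1, a gap junction protein (0.810), and ABCC3 (0.821). In other libraries LGALS3 (0.744) and MTHFD2, a mitochondrial folate enzyme (0.771), were low in library 3, and COL1A2 (0.762) was low in library 4.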

How the results depend on the processing

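No paired analysis was possible because the report describes 1 group and makes no test between groups. The median spread over genes, 1.34, was 1.77 with a pseudocount of 0.25 and 0.62 without libraries 2 and 4; leaving out 1 library at a time gave 0.91 (without library 2) to 1.39. The common biological coefficient of variation, 0.80, was 1.49 with no filter on low values and 0.58 without libraries 2 and 4, and 0.66 to 0.87 without 1 library. The filter was applied anew to each set of libraries, so these values cover different genes. Without libraries 2 and 4, 1017 genes had an SD over 1 and 1181 an SD under 0.25, against 4278 and 114. Without 1 library these counts were 2134 to 4435 and 151 to 494; both ranges had library 2 left out at the end of smaller spread, and the second count was 212 without library 3 and 194 without library 4. Leaving out libraries also leaves fewer samples. For the main measures 32 of 38 other settings moved the value by less than the limit set for it. The limit was the spread between libraries, or 1.5 times for a count. For the median spread and the coefficient of variation it was the jackknife error. Every setting tried for the mean CPM of KRT18, LRP2, NANOG and GATA6 was within the limit, here the SD between libraries. Leaving out 1 library can hardly move a mean that far, so those settings could not decide how steady these means are. Over all settings the means ran from 6032 to 8263 CPM for KRT18 and from 2396 to 3193 CPM for LRP2. They ran from 203 to 301 CPM for NANOG and from 159 to 225 CPM for GATA6. For single lists 61 of 159 other settings moved the value beyond the spread between libraries or the jackknife error. The median spread of simple epithelium, 0.68, was 0.93 with plain totals, and the epiblast share, 0.386%, was 0.418% without mitochondrial genes. The scaling of list sums was compared after seeing the data. The cause of the moves was not tested.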

Other observations

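Cell cycle genes were counted at 0.509%, 0.431%, 0.620%, 0.453% and 0.4996% of counts, and at 4535, 6713, 4670.1, 4717 and 4586 CPM with TMM scaling, by which library 2 was highest. GMNN, which encodes the replication inhibitor geminin, lay at 313, 2109, 219.9, 454 and 540.0 CPM with library 2 highest. CCNA2, cyclin A2, had the smallest spread among members from 10 CPM up with TMM scaling, at 184, 176, 171, 223 and 216 CPM. PCNA, the replication clamp, lay at 212, 377, 225, 495 and 356 CPM. AURKB had the largest spread, at 136, 0, 121, 40.1 and 63.9 CPM, with 0 counts in library 2.

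Genes of the amino acid response took 0.292%, 0.164%, 0.310%, 0.262% and 0.196% of counts. ATF4, the factor that drives this response, lay at 275, 217, 289, 537 and 275 CPM, highest in library 4. PHGDH, which starts the synthesis of serine, was at 12.0, 328, 10.5, 0.128 and 10.9 CPM. It was nearly equal in libraries 1, 3 and 5 and far higher in library 2. Imprinted genes took 0.0153% to 0.0808% of counts, led by GNAS at 186 ± 87.7 CPM and TSSC4 at 118 ± 75.5 CPM (SD, n = 5), while SNRPN lay at 67.0, 96.1, 63.4, 109.7 and 70.9 CPM. Interferon-stimulated genes took 0.00545% to 0.0493% of counts. IFI30, a lysosomal reductase, led them at 156, 0, 74.0, 164 and 70.7 CPM.

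Of the 3128 genes with a mean of at least 50 CPM, 128 were under 1 CPM in library 2, and 27 lay more than 10-fold above every other library there. Library 2 was the lowest or the highest of the 5 for 77.2% of these genes.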
